A study of Mus musculus with 16 samples.

Results

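The organic ion transporters of the SLC22A and SLCO families and the ABCC family of ATP-driven proteins were followed in kidney and ovary of mice given PT-2385, a small molecule that binds the hypoxia-inducible factor HIF-2α and keeps it from pairing with ARNT. Members were the protein-coding genes whose symbols begin with Slc22a, Slco or Abcc followed by a number. There were 49 of them among 55359 genes in the count files, of which 25 belonged to the Slc22a, 14 to the Slco and 10 to the Abcc family. The rule used names only and no measured value, but it was chosen with earlier results of these data known.

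There were 4 groups of 4 libraries each, all from wild-type 21-day-old female CBAF1 mice. PT-2385 kidneys and PT-2385 ovaries came from mice injected intraperitoneally with 7.5 mg/kg of the compound every 12 h for 4 days. Vehicle kidneys and vehicle ovaries came from mice given 5% DMSO in saline on the same schedule. Every mouse, with or without the compound, also received 5 IU PMSG for 48 h and then 5 IU hCG for 13 h, gonadotrophins that drive follicle growth and ovulation, so no group shows an unstimulated kidney or ovary. Kidney RNA was isolated with Trizol and ovary RNA with a column kit, so organ and isolation method cannot be told apart and levels were not tested between organs. The labels do not state that each library is its own mouse, so p-values measure only the spread between libraries, which may be technical.

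In the kidney, tubule cells clear drugs, toxins and metabolites by taking organic anions and cations from the blood side and passing them into the urine. SLC22A proteins carry out much of the uptake, and some, such as the urate transporter URAT1, return compounds from the urine. SLCO proteins move larger amphipathic anions such as steroid conjugates, thyroid hormones and prostaglandins. ABCC proteins export glutathione, glucuronide and sulfate conjugates and cyclic nucleotides, except ABCC8 and ABCC9, which are regulatory subunits of ATP-sensitive potassium channels.

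Assigned read pairs ran from 12.7 M (1 M is 1000000) in PT-2385 kidney replicate 2 to 43.3 M in PT-2385 kidney replicate 3. Levels are given as TPM (transcripts per 1000000, which allows for gene length) where genes are compared, and as CPM (counts per 1000000 after scaling) where libraries are compared. Foxl2 and Fshr, granulosa cell genes, had 0 counts in all 8 kidney libraries, and Kap, a proximal tubule protein, averaged 37334 TPM in PT-2385 kidneys and 39415 TPM in vehicle kidneys. The ovary library vehicle replicate 1 also held kidney transcripts. Kap reached 126 TPM in it, against at most 2.91 TPM in the other 7 ovary libraries. The Slc22a8 difference between organs and the median difference over the members are given with and without that library. Other ovary results include it, unless a fit is said to leave it out. Epas1, which encodes HIF-2α, averaged 198 ± 8.10 CPM in PT-2385 kidneys and 193 ± 9.39 CPM in vehicle kidneys (mean ± SD, n = 4), and Arnt averaged 63.5 ± 2.39 and 61.4 ± 3.29 CPM in the same order. Neither was called. Epo, the erythropoietin gene that HIF-2α drives in kidney interstitium, had 45 counts in all PT-2385 kidneys together and 7 in all vehicle kidneys, too few to be tested. That direction is the opposite of what an inhibitor of HIF-2α would give, so Epo does not bear out the group labels, and the groups are taken here as labelled. The mitochondrial genome took 11.74% to 12.58% of the counts in PT-2385 kidneys and 10.06% to 11.67% in vehicle kidneys.

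Members were called expressed in an organ when they had enough counts to enter its test. The kidney expressed 40 of the 49 and the ovary 23. Both organs expressed 21, the kidney alone 19 and the ovary alone 2, Slco1a5 and Slco5a1. The remaining 7 passed in neither organ (Slco1b2, Slco1c1, Slco6c1, Slco6d1, Abcc12, Slc22a16 and Slc22a20), and Slco6c1 and Slco6d1 had 0 counts in all 16 libraries, which allows at most 3 counts per organ (0.0144 CPM over the kidney libraries and 0.0134 CPM over the ovary libraries, counting error only). A mean of at least 1 TPM was reached by 36 members in kidney and 18 in ovary. Of the Slc22a family 23 of 25 members were tested in kidney and 6 of 25 in ovary, while of the 10 Abcc members 9 were tested in kidney and 8 in ovary.

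The kidney's most abundant members were uptake and reabsorption transporters of the Slc22a family. Slc22a12, which encodes URAT1, stood first at 420 ± 35.7 TPM in PT-2385 kidneys and 474 ± 28.2 TPM in vehicle kidneys. Of its exon bases 30.6% overlap Nrxn2 on the opposite strand, and counting recorded no strand option, so reads from the 2 genes could not be told apart there. Slc22a8, the organic anion transporter OAT3 of the blood side, followed over the 8 libraries together at 383 ± 22.7 TPM in PT-2385 kidneys and 398 ± 31.7 TPM in vehicle kidneys. Slc22a6, its partner OAT1, had 303 ± 24.3 TPM in PT-2385 kidneys and 352 ± 27.95 TPM in vehicle kidneys.

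Slc22a19, a mouse organic anion transporter of the urine side, had 270 ± 21.5 TPM in PT-2385 kidneys and 402 ± 112 TPM in vehicle kidneys. In vehicle kidneys its mean lay above that of Slc22a8, and its replicate 1, at 539 TPM, exceeded every library of Slc22a12, so the order of levels differed between the groups. Slc22a18, an imprinted gene for an organic cation transporter-like protein, had 299 ± 24.7 and 343 ± 7.33 TPM in PT-2385 and vehicle kidneys. Slc22a6 and Slc22a18 overlapped from library to library, so their order is not resolved by the spread. Slc22a2 (OCT2) stood at 215 ± 19.97 TPM in PT-2385 kidneys and 267 ± 13.2 TPM in vehicle kidneys. Slco1a6, a kidney SLCO transporter of the mouse, was the highest outside the Slc22a family at 133 ± 14.1 TPM in PT-2385 kidneys and 224 ± 69.4 TPM in vehicle kidneys.

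The most abundant members of the ovary were others. Slco2a1, the prostaglandin transporter, led there at 156 ± 13.7 TPM in PT-2385 ovaries and 154 ± 29.0 TPM in vehicle ovaries, with the lowest library at 116 TPM and the highest at 186 TPM, both vehicle. Slc22a17, a receptor for lipocalin-2, had 54.0 ± 6.41 TPM in PT-2385 ovaries and 48.3 ± 9.61 TPM in vehicle ovaries, and Slc22a5, the carnitine transporter OCTN2, had 44.9 ± 3.78 and 45.5 ± 4.57 TPM in the same order. These 2 ranges overlapped. Slco3a1, a prostaglandin and thyroxine carrier, Abcc1, the glutathione conjugate exporter MRP1, and Abcc9, a potassium channel subunit, followed at vehicle means of 34.3, 27.4 and 25.0 TPM. Slc22a7 and Abcc2 were near the floor in ovary, with 7 counts for Slc22a7 in all 8 libraries and at most 0.721 TPM for Abcc2.

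**Figure D1:**
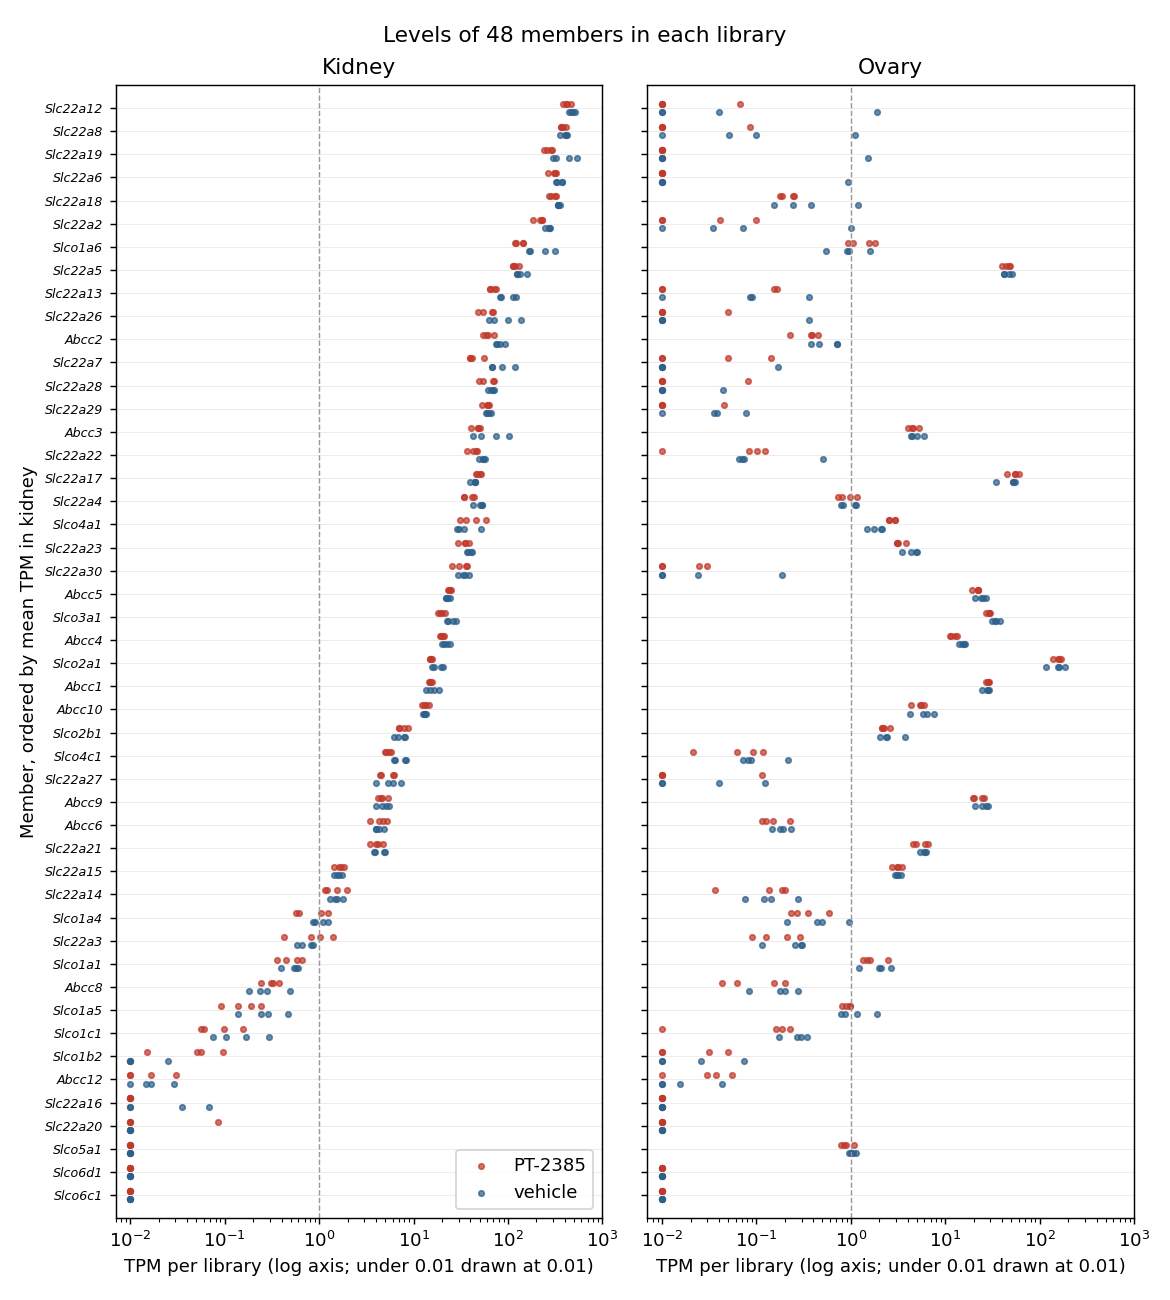
TPM of 48 members in each of the 8 kidney libraries (left) and 8 ovary libraries (right), on a log axis, with PT-2385 libraries in red above vehicle libraries in blue for each gene. The dashed line marks 1 TPM, which 36 of all 49 members reach on average in kidney and 18 in ovary; ovary vehicle replicate 1 is the single blue point near 1 TPM in the rows of kidney-abundant members.

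Many members lie side by side in the genome. With gaps of at most 500000 bases, 29 of the 49 fell into 8 clusters (GRCm39). The largest lies on chromosome 19 from 7650426 to 8605663 and holds 8 Slc22a genes, from Slc22a19 to Slc22a6. Clustered genes resemble each other, and their reads may be shared. Of the distinct 50-base stretches in its GENCODE M21 transcripts, Slc22a28 shared 53.9% with another gene, Slc22a13 36.0% (with its pseudogene Slc22a13b-ps), Slc22a30 34.2%, Slc22a27 29.9%, Slc22a29 29.8%, Slc22a5 27.1% (with Slc22a21) and Slc22a21 24.2%. The counts of these genes may be affected, and by how much was not tested. Slc22a7, Slc22a22, Slco3a1 and Slco4c1 shared 0.

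Promoters were read for the members from RefSeq (GRCm38.p6, 250 bases before to 50 after the start), a build other than that of the counts, and 40 of the 49 matched. Of the 40 members tested in kidney 32 had at least 1 promoter, 38 in all. Short motifs of 2 kinds were searched on both strands: the HIF core (ACGTG or GCGTG) and the nuclear receptor half-site AGGTCA. Matches can overlap. The HIF core is the motif of the drug's target, and the other is bound by nuclear receptors, regulators known for transporter genes of this kind. Shown are Abcc2 and Slc22a4, which fell in kidney (below), so that each kind of motif is seen. Promoters were found for 6 of the members that fell, and only the promoters of Abcc2 and Slc22a4 held a match. In capitals are the motif matches.
Abcc2, chr19:43782058-43782357, plus strand: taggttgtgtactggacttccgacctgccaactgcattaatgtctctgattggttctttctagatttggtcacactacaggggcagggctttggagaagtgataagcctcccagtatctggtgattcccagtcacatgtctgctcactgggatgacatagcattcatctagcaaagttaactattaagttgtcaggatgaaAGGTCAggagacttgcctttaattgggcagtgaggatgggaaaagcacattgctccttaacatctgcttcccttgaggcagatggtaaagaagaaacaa
Slc22a4, chr11:54028055-54028354, minus strand: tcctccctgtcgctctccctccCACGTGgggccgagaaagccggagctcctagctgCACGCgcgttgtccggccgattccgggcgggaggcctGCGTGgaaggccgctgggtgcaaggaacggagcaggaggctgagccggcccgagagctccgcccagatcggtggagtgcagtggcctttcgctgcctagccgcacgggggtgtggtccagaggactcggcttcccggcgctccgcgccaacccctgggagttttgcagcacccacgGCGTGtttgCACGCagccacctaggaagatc
Abcc2 holds AGGTCA at base 202 of this window. Slc22a4 holds ACGTG on both strands at bases 23 and 24, where the 2 matches overlap in a palindrome, and GCGTG at bases 57, 94, 270 and 279. Over the 38 promoters of members tested in kidney, ACGTG was present in 10.5%, against 19.6% of all 32851 promoters. GCGTG was in 15.8% against 32.4%, and AGGTCA in 18.4% against 16.3%. A match is a description of letters, not a site of binding.

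The first comparison asked how these genes responded to PT-2385 in the kidney. In PT-2385 kidneys 7 members fell and 0 rose: Slco3a1, Slc22a2, Abcc2, Slco4c1, Slc22a4, Slc22a13 and Slc22a22, by 18.6% (Slc22a2) to 30.7% (Slc22a13). They span uptake transporters of both charges, a urate and nicotinate transporter, a prostaglandin carrier and a conjugate exporter. Slc22a7 showed a larger difference, to 0.518 of its vehicle level, but narrowly missed the threshold. Of the 40 members tested, 31 had a log2 fold change below 0. The mitochondrial share of the counts, given above, was higher in each PT-2385 kidney than in each vehicle kidney, and its part in these differences was not tested.

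Calls were made at an adjusted p under 0.05 (quasi-likelihood test of edgeR, with p-values adjusted by Benjamini-Hochberg over 17763 genes). The 7 of 40 members called compare with 5.53% of all genes tested. Lower calls made up 17.5% of the members, against 3.7% of all genes, and higher calls 0 of 40, against 1.83%. The median log2 fold change was −0.15 over the members and 0.01 over all genes, of which 48.5% lay below 0. These 40 had passed a filter on low counts and are not all members. In bulk tissue, fewer cells of a type and less RNA per cell cannot be told apart.

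Slc22a2 encodes OCT2, which takes organic cations such as creatinine and metformin from the blood (chromosome 17, 12803019 to 12847375). It had 267, 264, 250.5 and 215 CPM in PT-2385 kidneys, against 307, 307, 295 and 315 CPM in vehicle kidneys. Each PT-2385 library lay below each vehicle library, and replicate 4 was the lowest. The log2 fold change was −0.30 (SE 0.0601, adjusted p = 0.0117, edgeR).

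Slco3a1 (chromosome 7, 73925167 to 74204528) had 67.8, 73.6, 61.0 and 64.0 CPM in PT-2385 kidneys, against 90.7, 86.2, 80.3 and 77.0 CPM in vehicle kidneys. Again the groups did not overlap. Its log2 fold change was −0.33 (SE 0.0636, adjusted p = 0.00902, edgeR), the smallest p of the members. Slc22a2 and Slco3a1 were called under each of the 15 distinct alternative fits tried. Of these 15 fits, 13 called Abcc2 and 13 Slco4c1, and 11 each called Slc22a4, Slc22a13 and Slc22a22. The last 3 lost the call in 4 of the 8 fits that left out 1 library.

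Abcc2 encodes MRP2, which pumps glucuronide and glutathione conjugates into the urine (chromosome 19, 43770631 to 43829179). Its level was 205, 263, 229 and 218 CPM in PT-2385 kidneys, against 266, 335, 297 and 308 CPM in vehicle kidneys. The highest PT-2385 library stood just under the lowest vehicle library. The log2 fold change of −0.40 ± 0.0799 (SE; edgeR, adjusted p = 0.0156) corresponds to 0.757 of the vehicle level. Its promoter is the one shown above with a nuclear receptor half-site.

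Slco4c1 encodes OATP4C1, a carrier of the blood side for digoxin and thyroid hormone (chromosome 1, 96743995 to 96799896). It was scarce, with 12.6, 11.3, 13.1 and 11.8 CPM in PT-2385 kidneys and 17.98, 17.95, 14.6 and 14.5 CPM in vehicle kidneys. The groups did not overlap, and vehicle replicates 1 and 2 were the highest. Its log2 fold change was −0.40 (SE 0.0894, adjusted p = 0.0176, edgeR).

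Slc22a4 encodes OCTN1, the ergothioneine transporter (chromosome 11, 53873949 to 53918916). It had 36.8, 46.4, 44.1 and 36.1 CPM in PT-2385 kidneys and 53.3, 54.2, 46.0 and 54.0 CPM in vehicle kidneys. Of the 7 that fell it was the one whose groups overlapped, because vehicle replicate 3 lay below PT-2385 replicate 2. The log2 fold change was −0.35 (adjusted p = 0.0248, edgeR). Its neighbours in the cluster, Slc22a5 and Slc22a21, had log2 fold changes of −0.16 and −0.09 and were not called.

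Slc22a13 encodes OAT10, a urate and nicotinate transporter (chromosome 9, 119022040 to 119038164). It had 60.3, 68.8, 66.2 and 60.5 CPM in PT-2385 kidneys, against 109, 102, 81.2 and 77.0 CPM in vehicle kidneys, with no overlap between the groups. Its log2 fold change of −0.53 (adjusted p = 0.0290, edgeR) was the largest among the 7. Slc22a22, known in the mouse as a prostaglandin-specific organic anion transporter (chromosome 15, 57107163 to 57341021), had 53.0, 53.0, 48.1 and 41.9 CPM in PT-2385 kidneys and 53.6, 62.5, 62.7 and 61.8 CPM in vehicle kidneys. Its groups did not overlap by a narrow margin, since vehicle replicate 1 stood beside the highest PT-2385 libraries. The log2 fold change was −0.30 (adjusted p = 0.0297, edgeR).

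Slc22a7 encodes OAT2, which carries organic anions and cyclic GMP (chromosome 17, 46743109 to 46749383). It had 41.5, 53.9, 38.9 and 38.4 CPM in PT-2385 kidneys, against 112, 82.1, 67.7 and 67.3 CPM in vehicle kidneys. No library of one group reached the other group, and the vehicle libraries differed among themselves by 1.67-fold. The log2 fold change was −0.95 with a 95% interval of −1.44 to −0.46 and an adjusted p of 0.0504 (edgeR), so it is given as a value and not as a call. It passed the threshold under 7 of the 15 alternatives. Abcc10, its neighbour on chromosome 17, had a log2 fold change of 0.04.

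**Figure D2:**
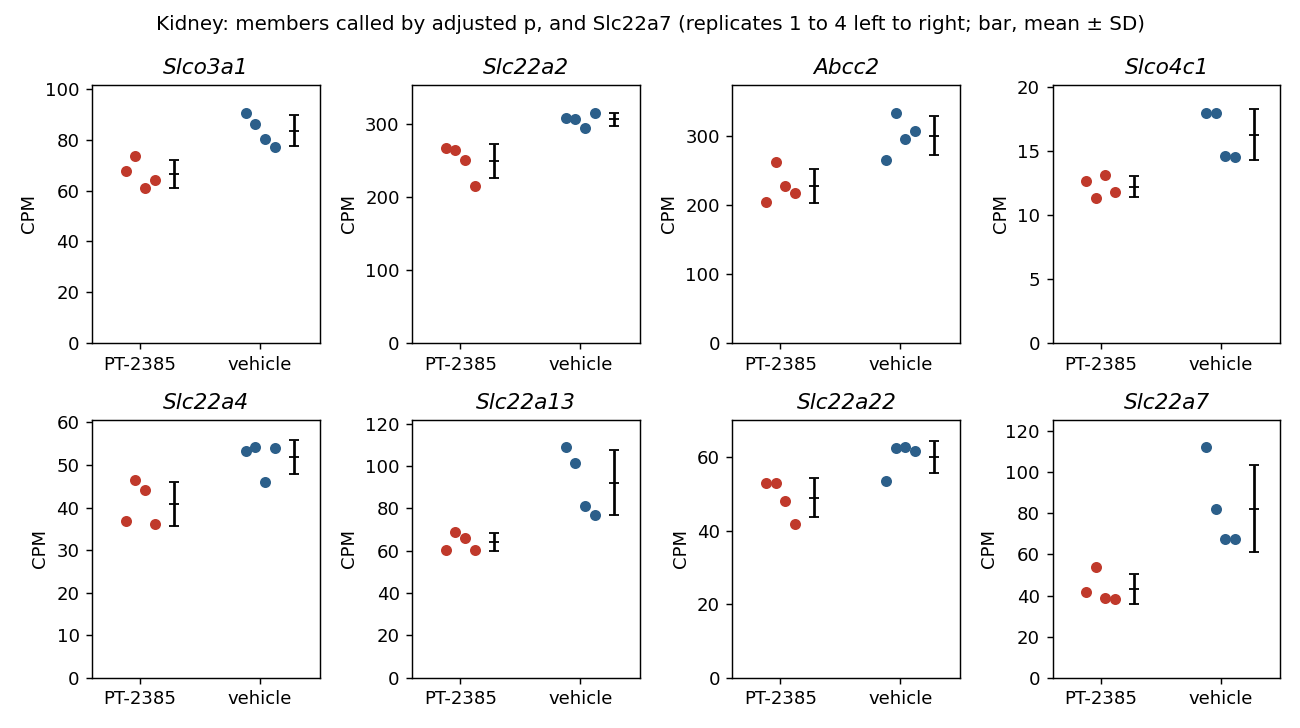
CPM in each kidney library for the 7 members that fell and for Slc22a7, with PT-2385 libraries (red) left of vehicle libraries (blue), replicates 1 to 4 from left to right within a group, and the mean ± SD as a bar. Slc22a4 is the gene whose groups overlap, and Slc22a7 has the largest fold difference of the 8, with PT-2385 libraries between 38.4 and 53.9 CPM and vehicle libraries between 67.3 and 112 CPM.

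Groups that do not overlap were counted over all members tested, whatever the p. All PT-2385 kidneys lay below all vehicle kidneys for 12 of the 40 members (30.0%), against 7.89% of all genes tested, and above them for 1, Slc22a17, against 5.37%. Of the Slco members 4 of 8 were in the lower set, of the Slc22a members 7 of 23 and of the Abcc members 1 of 9. Beside those already described, the 12 include Slco2a1, Slc22a18, Slco1a6 and Slc22a19. Slc22a17 had a log2 fold change of 0.19 (adjusted p = 0.0921, edgeR).

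The abundant organic anion transporters of the blood side were not called by edgeR with all libraries. Slc22a8 (OAT3) had 598, 623, 672 and 595 CPM in PT-2385 kidneys and 548, 626, 709 and 677 CPM in vehicle kidneys, with overlapping groups, and its log2 fold change of −0.04 had a 95% interval of −0.19 to 0.11. Slc22a6 (OAT1) had 605, 570.5, 584 and 497 CPM in PT-2385 kidneys and 579, 593, 718 and 702 CPM in vehicle kidneys, a log2 fold change of −0.20 (adjusted p = 0.142, edgeR). Slc22a12 (URAT1) had a log2 fold change of −0.16 (adjusted p = 0.114, edgeR). Of the 15 alternative fits 0 called Slc22a8, 1 called Slc22a6 and 2 called Slc22a12. For none of the 3 did the interval reach a fall by 0.40 on the log2 scale, the size found for Abcc2.

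Slc22a18 was not called by edgeR either, although 5 of the 15 alternative fits called it, DESeq2 among them (adjusted p = 0.0258). It had 213, 252, 244 and 222 CPM in PT-2385 kidneys and 252, 267, 271 and 265 CPM in vehicle kidneys, a log2 fold change of −0.18 (adjusted p = 0.0631, edgeR).

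Slco1a6 and Slc22a19 had large differences with a wide spread among the vehicle libraries. Slco1a6 had 193, 188, 155 and 162 CPM in PT-2385 kidneys, against 391.8, 313, 223.5 and 226 CPM in vehicle kidneys (log2 fold change −0.73, SE 0.209, adjusted p = 0.100, edgeR). Slc22a19 had 267, 270, 227 and 244 CPM in PT-2385 kidneys, against 480, 403, 288 and 302 CPM in vehicle kidneys (log2 fold change −0.55, SE 0.177, adjusted p = 0.128, edgeR). DESeq2 called both (adjusted p = 0.0140 for Slco1a6 and 0.0391 for Slc22a19), as did limma-voom (0.0181 and 0.0332). Of the 15 alternative fits 3 called them in all, the third being the fit with a replicate block. No fit that left out 1 library called either. In both genes vehicle replicates 1 and 2 stood well above vehicle replicates 3 and 4. PT-2385 replicates 1 and 2 likewise stood above PT-2385 replicates 3 and 4, by less. Slc22a26 and Abcc3, the conjugate exporter MRP3, showed the same order among vehicle libraries, at log2 fold changes of −0.61 and −0.50 with overlapping groups, and were singled out after their values were seen. Of the 34 members with a vehicle mean of at least 5 CPM, 2 (Slco4a1 and Abcc6) ranged over more than 1.5-fold among PT-2385 kidneys and 7 did so among vehicle kidneys, each of the 7 highest in vehicle replicate 1. Of the 40 members tested, the 25 that the rule for named genes left out ran from −0.61 to 0.28 on the log2 scale, with 16 below 0 and adjusted p-values from 0.0598 up.

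**Figure D3:**
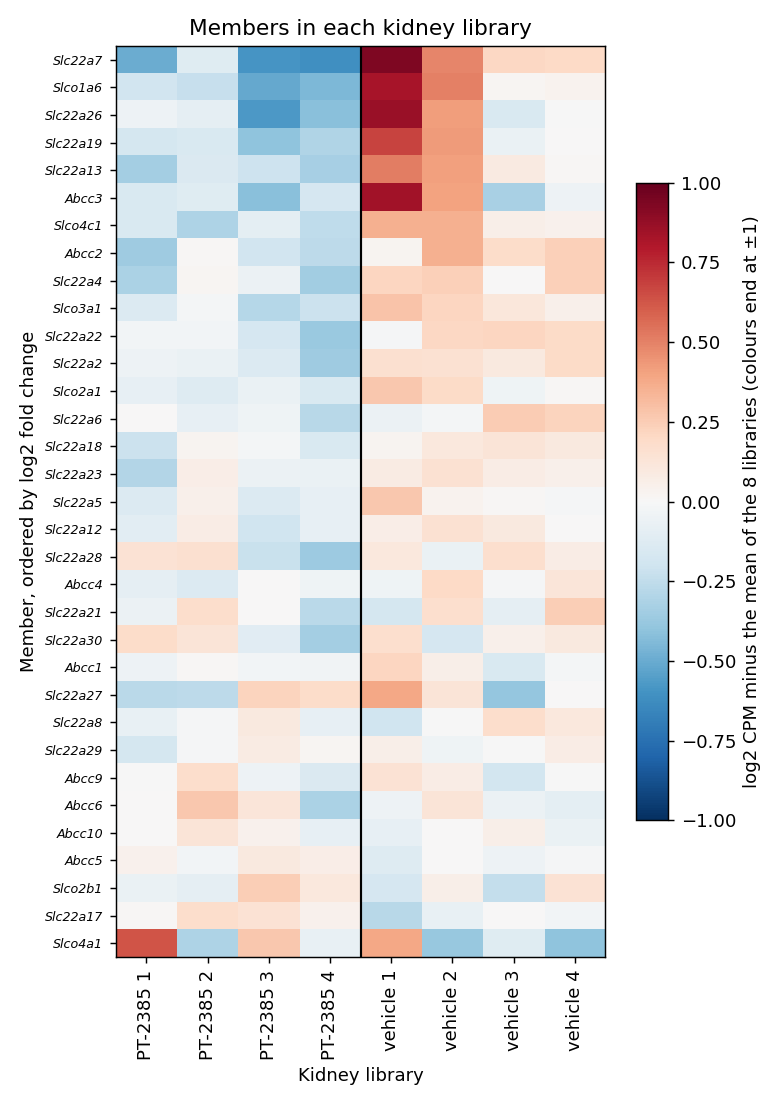
Each row is a member with a vehicle mean of at least 5 CPM, each column a kidney library, with PT-2385 libraries left of vehicle libraries; colour is log2 CPM minus the mean of the 8 libraries. Vehicle replicates 1 and 2 are the reddest columns in the rows of Slc22a7, Slco1a6, Slc22a26, Slc22a19, Slc22a13 and Abcc3, while Slc22a2 and Abcc2 show a smaller step between the groups.

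The number of members called moved with single libraries. It was 2 without PT-2385 replicate 4, 4 without PT-2385 replicate 3, 12 without PT-2385 replicate 2 and 3 without vehicle replicate 2, and 5 to 8 without each of the other 4. Over all genes the count of calls was 287, 240, 1061 and 269 in the same order, and 531 without PT-2385 replicate 1, against 982 with all 8 libraries. PT-2385 replicate 3, the deepest library, is also the one whose file name holds another flow-cell code. In each of these fits all members called were lower in PT-2385 kidneys.

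Summed over the whole set, members made up 0.417% to 0.466% of the counts in PT-2385 kidneys and 0.494% to 0.542% in vehicle kidneys. Their summed level was 3052 to 3446 TPM in PT-2385 kidneys and 3610 to 4275 TPM in vehicle kidneys. The ranges did not overlap, either for the whole set or for the Slc22a family alone (2658 to 3018 TPM in PT-2385 kidneys and 3161 to 3583 TPM in vehicle kidneys). They did overlap for the Slco family (208 to 253.3 TPM in PT-2385 kidneys and 252.7 to 430.2 TPM in vehicle kidneys) and for the Abcc family (183 to 203 TPM in PT-2385 kidneys and 197 to 261 TPM in vehicle kidneys). The sums follow the most abundant genes and were not tested.

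Other genes of renal transport were taken from a list of 26, of which 25 were tested. Of these, 3 fell: Slc17a1, a urate and phosphate transporter of the urine side (log2 fold change −0.29, adjusted p = 0.00415, edgeR), Slc13a2, the citrate transporter NaDC1 (−0.39, adjusted p = 0.00508), and Slc13a3, the dicarboxylate transporter NaDC3 whose substrates drive anion uptake through OAT1 and OAT3 (−0.29, adjusted p = 0.0102). None rose, 17 of the 25 were below 0 and the median was −0.12. Over all genes tested in kidney 3.7% fell, 1.83% rose and 48.5% lay below 0. On the KATP list, the channel pores Kcnj11 and Kcnj8 had log2 fold changes of 0.16 and −0.04.

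Of the list of regulators and scaffolds 19 of 20 were tested. In PT-2385 kidneys 3 of them fell, of which 2 are described. Pdzk1, a scaffold that holds URAT1 and other transporters in the membrane, had 467 ± 28.2 CPM in PT-2385 kidneys and 602 ± 36.0 CPM in vehicle kidneys (log2 fold change −0.37, adjusted p = 0.00406, edgeR). Ppara, a nuclear receptor for fatty acids, also fell, with no overlap between the groups (−0.53, adjusted p = 0.00467). Slc9a3r2, the scaffold NHERF2, rose (0.22, adjusted p = 0.0296), a call kept in 10 of the 15 alternative fits. Altogether 15 of the 19 were below 0, with a median of −0.09. The shares over all genes were 3.7% fallen, 1.83% risen and 48.5% below 0.

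Markers of kidney cell types moved beside the members. Of 10 proximal tubule markers 2 fell, Aqp1 (log2 fold change −0.37, adjusted p = 0.00416, edgeR) and Cubn (−0.44, adjusted p = 0.0288). Of the same 10, which include the member Slc22a12, 9 were below 0, and the median was −0.10. For these and the lists that follow, 3.7% of all genes fell, 1.83% rose and 48.5% lay below 0. Lrp2 had −0.34 with no overlap between the groups and was not called (adjusted p = 0.0554, edgeR). Slc34a1, a defining phosphate transporter of that segment, had a log2 fold change of −0.04, Miox −0.01 and Slc5a2 0.19. Without Kap and Slc22a12 the summed level of the list was 6070 to 6725 TPM in PT-2385 kidneys and 6694 to 6922 TPM in vehicle kidneys, ranges that overlapped. Of 5 podocyte markers all were above 0 and 2, Wt1 and Synpo, rose (0.27 and 0.28), with summed levels of 320 to 378 TPM in PT-2385 kidneys and 279 to 325 TPM in vehicle kidneys. Of the 5 macrophage markers 4 were below 0 and Cx3cr1 was above (0.06). Csf1r of that list fell (−0.27), with summed levels of 62.9 to 65.7 TPM in PT-2385 kidneys and 68.2 to 77.9 TPM in vehicle kidneys. Of the 6 loop and distal tubule markers 4 were above 0, while Umod (−0.33, adjusted p = 0.0919) and Slc12a1 (−0.08) were below. Pvalb of that list and Serpina1a of the hepatocyte list rose (0.30 and 0.74). Summed levels of the loop and distal tubule list were 2799 to 3213 TPM in PT-2385 kidneys and 2982 to 3585 TPM in vehicle kidneys. Those of the hepatocyte list were 112 to 128 TPM in PT-2385 kidneys and 90.99 to 114 TPM in vehicle kidneys. Of the 5 hepatocyte genes tested 4 were above 0, while Ttr, the most abundant, was below (−0.05). Tat, another hepatocyte gene, was not tested. It averaged 0.0588 TPM in PT-2385 kidneys and was at 0 in all vehicle kidneys. All members of the collecting duct (6), endothelium (5), urothelium (5) and adipocyte (5) lists were above 0, with medians of 0.08, 0.10, 0.36 and 0.25, and none was called. Of the 15 alternative fits 15 called Aqp1 and Serpina1a, 12 Wt1 and Csf1r, 11 Cubn and 10 Synpo and Pvalb. The part of these cell types in the members' differences was not tested.

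The second comparison asked the same of the ovary. None of the 23 members tested was called there by edgeR, and 5 had an unadjusted p under 0.05: Abcc4, Slco4a1, Slco3a1, Slc22a23 and Abcc2. These 5 of 23 compare with 13.2% of all genes at that p. Of these, Slco4a1 was higher and the other 4 were lower with PT-2385. DESeq2 and limma-voom also called 0 members. Over all genes 9 of 18125 were called (0.0497%), 1 higher (0.00552%) and 8 lower (0.0441%), so few genes of any kind passed in this organ. Of the 23 members 16 were below 0, with a median of −0.13, against −0.00304 over all genes.

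Abcc4 encodes MRP4, which exports prostaglandins and cyclic AMP. It had 26.3, 27.2, 25.1 and 29.1 CPM in PT-2385 ovaries, against 31.3, 35.5, 30.0 and 34.8 CPM in vehicle ovaries. The groups did not overlap, and the log2 fold change was −0.29 (SE 0.0775, adjusted p = 0.184, edgeR). Slco4a1, a thyroid hormone carrier, had 3.78, 3.12, 3.63 and 3.14 CPM in PT-2385 ovaries, against 2.46, 1.83, 2.12 and 2.64 CPM in vehicle ovaries. It was the member with all PT-2385 ovaries above all vehicle ovaries, at 1.504 times the vehicle level (0.59 ± 0.166 SE as log2 fold change, adjusted p = 0.200 by edgeR).

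Slco3a1, which fell in kidney, had 84.0, 82.6, 75.9 and 80.8 CPM in PT-2385 ovaries and 99.9, 95.8, 85.5 and 93.3 CPM in vehicle ovaries. These groups did not overlap either, and the log2 fold change was −0.21 (adjusted p = 0.211, edgeR). Slc22a23, a transporter-like protein whose substrates are not established, had 7.68, 9.06, 7.47 and 7.46 CPM in PT-2385 ovaries and 11.03, 11.8, 8.18 and 10.2 CPM in vehicle ovaries (log2 fold change −0.38, adjusted p = 0.241, edgeR). Abcc2 stood at 1.11 ± 0.291 CPM in PT-2385 ovaries and 1.70 ± 0.503 CPM in vehicle ovaries (−0.63, adjusted p = 0.357, edgeR). With 1 library left out, the log2 fold change of Abcc2 ran from −0.77 to −0.44. The part of the kidney transcripts in ovary vehicle replicate 1 in that value was not tested. Non-overlapping groups were found for 2 members below, against 3.77% of all genes, and for 1 above, against 3.18%.

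None of the members that dominate the ovary was called. The log2 fold change of Slco2a1 was 0.06 with a 95% interval of −0.22 to 0.33, and that of Slc22a5 was 0.02 (−0.16 to 0.20). For Slc22a17, Abcc1 and Abcc9 it was 0.20, 0.08 and −0.11, none called. Without ovary vehicle replicate 3, whose file carries another number than its label, 1090 genes and 3 members were called (Abcc4, Slc22a23 and Slco3a1, all lower). Of the gene lists 0 genes were called in ovary. Among them Slc47a1 (−0.92) and Slc29a4 (−0.37) of the other transporters, and Bcl6 (0.25) and Nfe2l2 (0.21) of the regulators, had the smallest p. Slc47a1 averaged 2.08 ± 1.07 CPM in vehicle ovaries and 499 CPM in vehicle kidneys. The part of the kidney transcripts in ovary vehicle replicate 1 in its value was not tested.

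**Figure D4:**
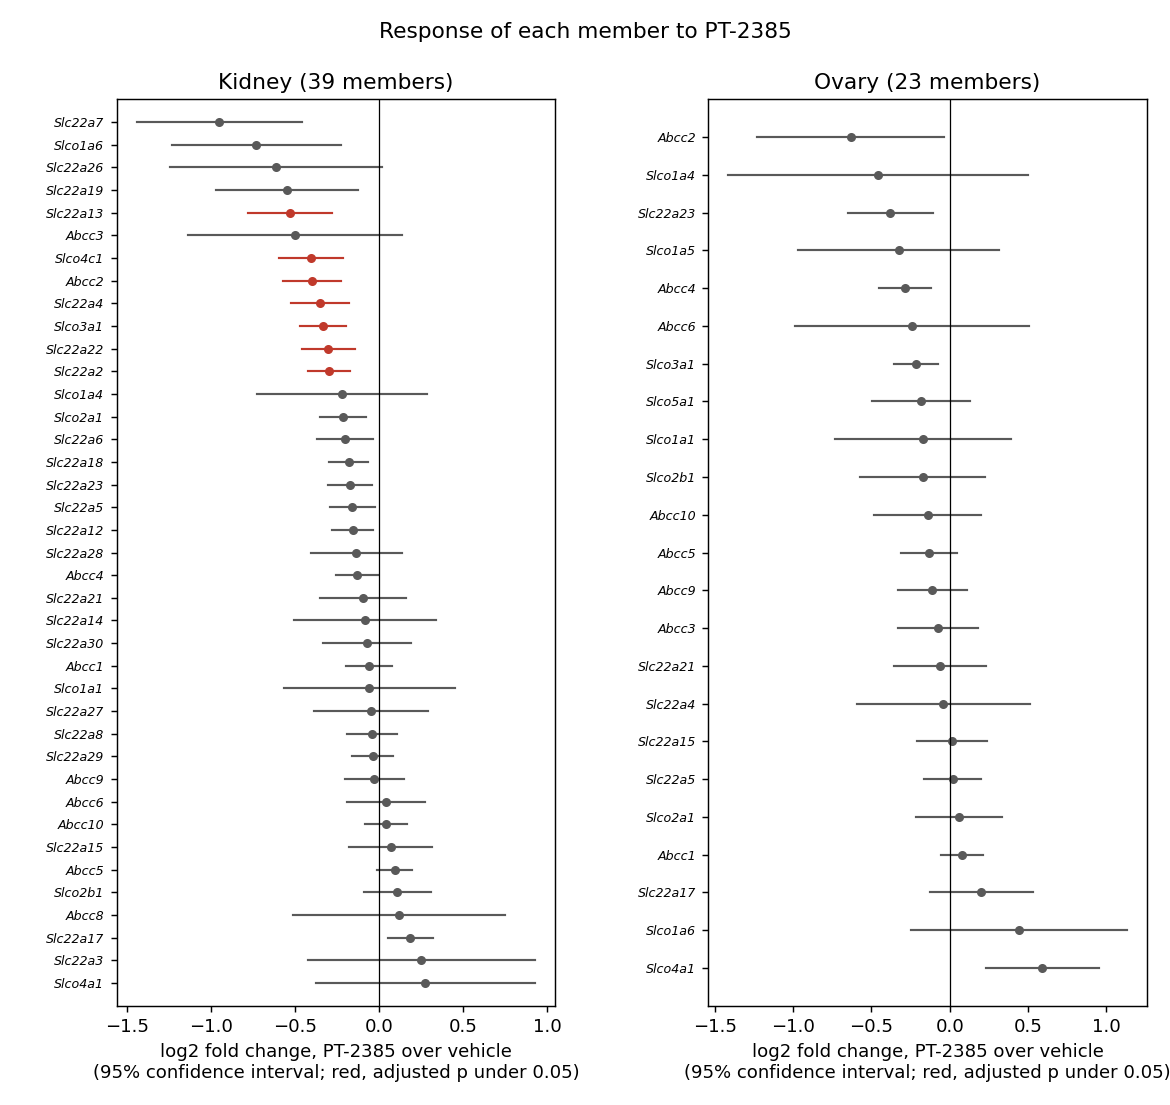
Log2 fold change of PT-2385 over vehicle with its 95% confidence interval for 39 of the 40 members tested in kidney (left) and the 23 tested in ovary (right), ordered by size, with members under an adjusted p of 0.05 in red. The 7 red members in kidney all lie below 0, between −0.30 and −0.53, and no ovary member is red.

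The third comparison asked whether the response differed between the organs, as the kidney response minus the ovary response over all 16 libraries. None of the 42 members tested was called by edgeR, 2 had an unadjusted p under 0.05 (12.0% of all genes did), and DESeq2 and limma-voom also called 0. Of all 19977 genes 38 were called (0.19%), 6 higher (0.03%) and 32 lower (0.16%). The smallest p belonged to Slco1a6, with a log2 difference of −1.16 (SE 0.451, adjusted p = 0.326, edgeR), set by −0.73 in kidney and 0.44 in ovary. Abcc5, the cyclic nucleotide exporter MRP5, had a difference of 0.20 (adjusted p = 0.422), and Abcc2 and Slc22a7 had 0.23 and −0.88. With 1 library left out, the difference ran from −1.44 to −0.957 for Slco1a6 and from 0.0143 to 0.370 for Abcc2. Slc22a7 had 4 of its 7 ovary counts in ovary vehicle replicate 1, the library with kidney transcripts. The part of those transcripts in these differences was not tested. The lower levels of Abcc2 and of the other members that fell in kidney were not shown to differ from their response in ovary.

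Slc22a8 had a difference of 3.93, which rests on ovary vehicle replicate 1, and without that library it was 1.40. For 16 of the 19 members tested in kidney and not in ovary, that library held more counts than any of the other 7 ovary libraries. Of these, 6 with at least 200 TPM in vehicle kidneys, among them Slc22a12, Slc22a8, Slc22a6 and Slc22a19, had 216 counts in it together and 46 in the other 7 libraries together. Slc22a6 and Slc22a19 had 42 and 34 counts there and 0 elsewhere in ovary. The level of these 6 in that library was 0.267% to 0.396% of their vehicle kidney mean. Slc34a1 (0.358%), Umod of the thick ascending limb (0.321%) and Kap (0.321%) stood at like shares. Without that library the median difference over the members was −0.16, against 0.13 with it.

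**Figure D5:**
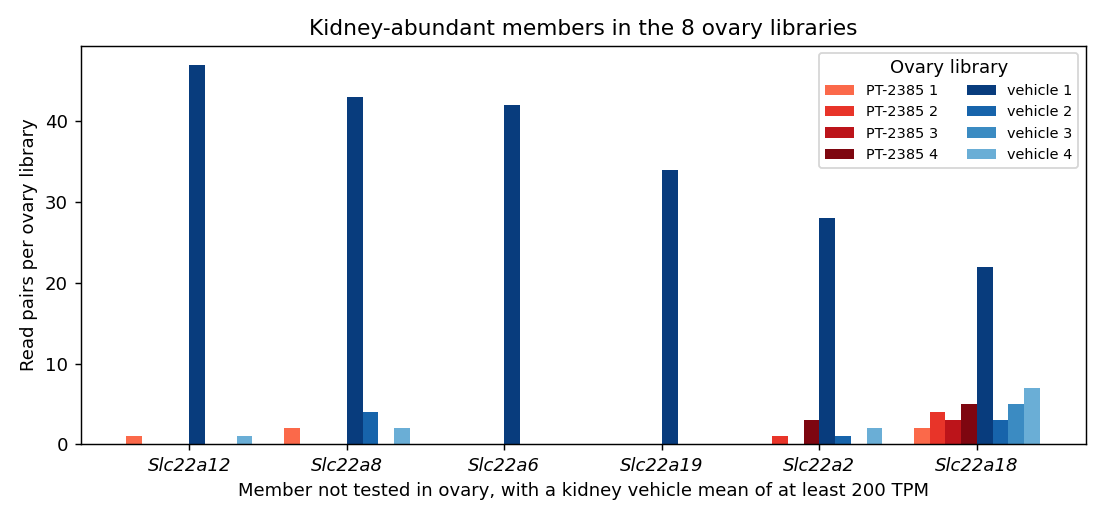
Read pairs in each of the 8 ovary libraries for 6 members that were not tested in ovary and averaged at least 200 TPM in vehicle kidneys, with PT-2385 libraries (reds) left of vehicle libraries (blues). Vehicle replicate 1, the darkest blue, holds 22 to 47 read pairs for each gene and every other library 7 or fewer.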

How the data were processed

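The values were counts of read pairs per gene that the authors deposited, which featureCounts 2.0.6 made over exons of the basic GENCODE vM27 annotation, per the file headers. FastQC, STAR and GRCm39 stand in the submitters' processing notes, with no version of the first 2. The deposited gene length, another number in each file, served to compute TPM. GENCODE M21 supplied the symbol and biotype for 52083 of 55359 identifiers. Each of the 16 files held 1 library, and 0 columns belonged to other samples.

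Each organ was fitted alone in edgeR 4.0.16 under R 4.3.3 (robust quasi-likelihood test, TMM scaling) on genes kept by filterByExpr (minimum count 10, minimum total 15). P-values were adjusted by Benjamini-Hochberg over all genes tested and called under 0.05, with 6 residual degrees of freedom per organ. The difference between organs was fitted over all 16 libraries. Alternatives were other scalings, DESeq2 1.42.0, limma-voom 3.58.1, other filters, a replicate block, each library left out and both libraries of deviating file name left out. Replicate libraries differed from each other beyond sampling noise in every pair (chi-square per degree of freedom 4.37 to 65.9), so none was treated as a duplicate deposit. This does not show that they are separate animals. Tested on simulated data, the kidney fit (17451 genes) recovered 64.2%, 85.1% and 98.5% of genes changed 1.5-, 2- and 4-fold, with 6.25% of calls false. The members called in kidney lay at 0.693 to 0.814 of the vehicle level, smaller changes than those simulated. Of genes changed 1.5-fold, the ovary fit recovered 59.7% (8.88% of calls false) and the difference between organs 32.8% (1.80% false).

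Members, gene lists and the rule for named genes were chosen with earlier results of these data known. The rule named Slc22a7 and Abcc2, every called member, the 8 most abundant in kidney and 6 in ovary, the members with the smallest p (6 in kidney, 4 in ovary and 3 for the difference between organs), called members of the lists, or at most 2 of a list, and Epas1, Arnt and Epo. Some of the results that the rule covers are not reported here. Figures were drawn with matplotlib 3.10.9.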

Additional observations from a re-analysis of the deposited data

Results flagged for a closer look

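Within a group of 4, a library was marked when its gap to the nearest other library, as a share of the group's range, exceeded Dixon's critical value. Of 144 groups examined 13 were marked. Chance marks about 5% of groups that were not chosen by their values. Members not tested in an organ were examined only if a library there held enough counts. A single high library could thus bring in its own group. The 5% is no measure for such groups, to which the 8 members named next belong. In ovary vehicle replicate 1 the level stood far above the other 3 vehicle ovaries for 8 members, namely Slc22a12 (1.88 TPM), Slc22a19 (1.51 TPM), Slc22a8 (1.10 TPM), Slc22a2 (1.00 TPM), Slc22a6 (0.938 TPM), Slc22a22 (0.511 TPM), Slc22a26 (0.362 TPM) and Slco4c1 (0.218 TPM). The mean of the other 3 was at most 0.0806 TPM for each of these 8. The same library held kidney markers, as given above, and where that RNA came from was not tested.

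The other 5 marks lay in tested values. Slc22a4 was low in kidney vehicle replicate 3 (46.0 CPM, against a mean of 53.8 CPM in the other 3), which is the library that made its groups overlap. Slc22a22 was low in kidney vehicle replicate 1 (53.6 CPM, against 62.4 CPM), and Slc22a5 was high there (215 CPM, against 180 CPM). In PT-2385 ovaries Slc22a23 was high in replicate 2 (9.06 CPM, against 7.54 CPM) and Slco2b1 in replicate 4 (5.20 CPM, against 4.47 CPM).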

How the results depend on the processing

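In kidney, 13 members were called with DESeq2, 14 without a filter on low counts (1761 genes) and 4 without the library of deviating file name (240 genes), against 7 (982 genes). With 1 library left out, 2 to 12 members and 240 to 1370 genes were called. In ovary, 322 genes were called with DESeq2, 4 with limma-voom and 330 without a filter, and without the library of deviating file name 1090 genes and 3 members, against 9 genes and 0 members. With 1 library left out these were 0 to 1090 genes and 0 to 3 members. For the difference between organs, 20 genes were called with median-ratio scaling, 304 with DESeq2, 12 with limma-voom, 167 without a filter and 378 without both deviating libraries, against 38, and 0 to 813 with 1 library left out. Whether the replicate numbers pair PT-2385 with vehicle libraries within an organ was not settled. Correlations of same-numbered deviations were −0.0640 to 0.0522 in kidney and −0.172 to 0.236 in ovary. Those of different-numbered deviations were −0.0675 to 0.0685 in kidney and −0.219 to 0.172 in ovary. Weak correlations cannot exclude pairing. Whether kidney and ovary libraries of the same treatment and number came from the same mouse was not examined. The main fit of the difference between organs treated them as independent. With a replicate block 1274 genes and 14 members were called in kidney, 395 and 0 in ovary, and 263 and 4 for the difference. Of 822 values of single genes under an alternative, 16 changed sign, none of them called. Left-out libraries moved the log2 fold change in kidney between −0.00992 and 0.0430 for Epas1, −0.00350 and 0.0507 for Arnt and −0.109 and 0.0113 for Slc22a8. In ovary they moved it between −0.0985 and 0.00871 for Epas1, −0.0213 and 0.0882 for Arnt, −0.0340 and 0.0897 for Slc22a5 and −0.0534 and 0.170 for Slco2a1, and the Slc22a7 difference between organs ran from −3.77 to 0.163. Without the deviating libraries Epas1 had −0.00237 in kidney and 0.00871 in ovary, and Slc22a5 −0.0150 in ovary. TPM over nuclear protein-coding genes raised 11 of the named levels beyond 1 SD, Slc22a12 in kidney to 599.8 TPM against 447 TPM. Within an organ, the fit without the deviating library is the fit without that replicate. The cause of these moves was not tested.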
